A study of Danio rerio with 9 samples.

Results

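The genes that lie beside *vegfc* on its chromosome were compared between mutant and control zebrafish hearts. They were taken from the row order of the count table as the 200 rows above and the 200 rows below the row of *vegfc* (ENSDARG00000069640), with that row left out. This gave 400 of the 16575 genes in the table. The rule itself uses row order only, though a gene has a row only where its mean count passed the authors' filter. Polyadenylated RNA from the ventricles of fish aged 5 months was sequenced. The mutant group held 4 libraries, numbered 6 to 9, from vegfc(hy-/-);vegfd(-/-) fish, which carry the hypomorphic *vegfc* allele hu5055 and the *vegfd* allele uq9bh on both chromosome copies. The control group held 5 libraries, numbered 1 to 5, from vegfc(+/+):vegfd(+/+) fish. The labels name no injury or drug for either group, and they do not say whether these fish carried the lyve1b:DsRed lymphatic reporter into which the study crossed its mutants. The deposited design text calls the groups separate zebrafish lines, so genotype and line cannot be told apart. The labels do not say whether each library came from 1 fish, and p-values measure only the spread between these libraries.

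Vegfc is a secreted growth factor that binds the receptor Flt4 on lymphatic endothelium, and it drives the growth of lymphatic vessels. Fish that are bred to be homozygous for a mutation also receive, on both copies, the stretch of chromosome on which that mutation arose. Crossing over shortens this stretch with each generation, so that genes near the mutation are inherited together more often than distant ones. Alleles of those genes can differ between lines in promoter, splicing or coding sequence, and a count table can show such differences next to any response to the mutation. No genotype of a neighbouring gene was available here, so whether the differences below travel with an inherited stretch was not tested.

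The row order was first checked against the RefSeq annotation of the GRCz12tu assembly, which was used for names and neighbours only. Of the 400 members, 344 matched that annotation by symbol or synonym, and 327 of these (95.1%) lay on the chromosome of *vegfc*, chromosome 1, while 17 lay elsewhere in that assembly. Of 326 pairs of matched neighbours, 319 (97.9%) stood in the same order. Rows above *vegfc* are therefore those before it on the chromosome, and rows below are those after it. The chromosome ran from 398 rows above to 327 rows below *vegfc*, so that the members end before it does on either side, and a row stands for a gene that passed the authors' filter, not for a fixed length of DNA.

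Library totals were 27320575 to 33496006 counts in mutants and 23302636 to 33407859 counts in controls, and the ranges overlapped. Expression is given as CPM, which are counts relative to the library total after TMM scaling. Of 33 marker genes measured for 9 cell types and tissues, 3 passed the test, against 3.34% of all genes. In mutants, 1 of them was lower in the fibroblast and epicardium list, and 1 was higher and 1 lower in the smooth muscle list. The summed level of 5 ventricular cardiomyocyte markers was 75200 to 86000 CPM in mutants and 89200 to 104000 CPM in controls, with none of the 5 called, while 3 endothelial markers summed to 483 to 651 CPM in mutants and 486 to 612 CPM in controls. None of the marker genes is a member, and the part of cell make-up in the results was not tested. In bulk tissue, fewer cells of a type and less RNA per cell cannot be told apart.

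Of the 400 neighbours, 32 differed between genotypes at an adjusted p-value under 0.05 (edgeR quasi-likelihood F test, two-sided, adjusted over all genes). This was 8.0% of the members, against 3.34% of all genes tested. Of the 400 members, 18 were higher in mutants, against 2.13% of all genes, and 14 were lower, against 1.21% of all genes. All 32 had no overlap between the genotypes, and a further 39 members had no overlap without being called. These 71 members were 17.8%, against 10.5% of all genes. An unadjusted p-value under 0.05 was found for 122 members (30.5%), against 20.9% of all genes. The median size of the log2 fold change was 0.36 in the neighbourhood and 0.31 over all genes, with the same values when genes without counts in 1 genotype were set to their lower bound.

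The authors' filter took the mean over all libraries, so a gene silent in 1 genotype enters the table only through the other. For 29 members the mean in 1 genotype was under 10 counts, and 8 of these were among the 32. Without such genes, 24 of 371 members (6.47%) were called, against 2.92% of all genes. The number of called members fell with each library left out. It was 14 to 17 (3.5% to 4.25% of members) when any mutant library was left out, against 1.18% to 1.59% of all genes. Without control replicates 1 to 5 in turn it was 29, 28, 18, 22 and 21. These were 7.25%, 7.0%, 4.5%, 5.5% and 5.25% of members, against 2.9%, 2.81%, 1.5%, 2.0% and 1.92% of all genes.

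The raised share was not limited to the 400 rows. Of the 325 other rows on chromosome 1, 23 (7.08%) were called, and of all 726 rows of the chromosome 55 (7.58%) were called. The shares on the other 24 chromosomes were between 1.37% and 4.62%, the highest on chromosome 4. A further 196 rows, unplaced or mitochondrial, held 11 called genes (5.61%). By comparison, the 200 rows above and below *vegfd*, the second mutated gene, held 8 called genes of 400 (2.0%), and 1 of the 100 nearest. These shares are given as descriptions, with no test between them.

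**Figure D1:**
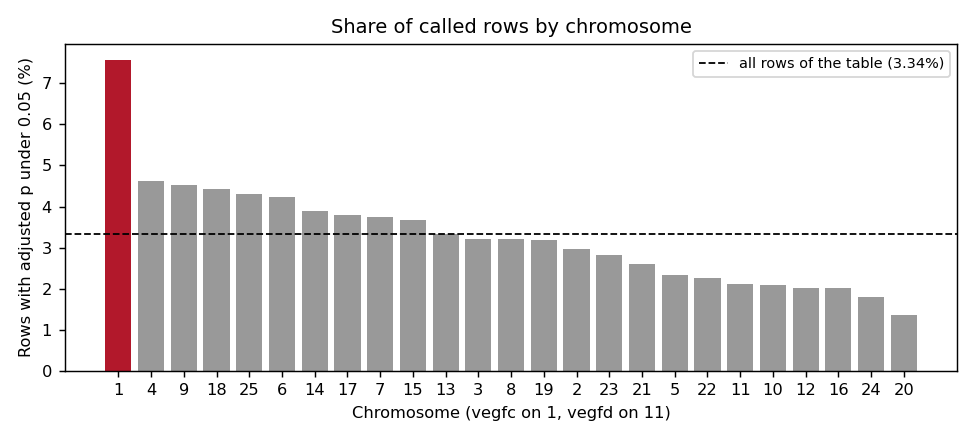
Bars give the percentage of rows of each chromosome with an edgeR adjusted p-value under 0.05, in falling order, and the dashed line gives the 3.34% of all rows. Chromosome 1, which holds *vegfc*, stands at 7.58%, and the others reach at most 4.62%. Unplaced and mitochondrial rows (5.61%) are not drawn.

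How the differences changed with row distance from *vegfc* was examined next. With both sides together, 10 of the 100 rows up to 50 rows away were called, and 9 of the 100 rows from 51 to 100. The next 100 held 7 and the outermost 100 held 6, against 3.34% of all genes. The count did not go on falling beyond the members, with 20 called in the 200 rows that follow and 5 in the 200 rows after those, of which 125 are on the chromosome. Nor was the fall among the members even without genes whose mean in 1 genotype was under 10 counts. From the nearest to the outermost rows the shares were then 7.78%, 5.32%, 7.22% and 5.56%, against 2.92% of all genes. Within 25 rows on both sides the share was highest, with 6 of 50 rows (12.0%) called, and 13.0% without such genes. That the share near *vegfc* was higher than over all members held in some fits that left out a library and not in others. Within 50 rows it was 3.0% without mutant replicate 6, 7 or 9, against 4.25%, 3.5% and 3.5% of all members in these fits. It was 4.0% against 4.0% without mutant replicate 8, and 5.0% against 5.25% without control replicate 5. The share within 50 rows stayed higher without control replicates 1 (8.0% against 7.25%), 2 (9.0% against 7.0%), 3 (5.0% against 4.5%) and 4 (7.0% against 5.5%). In each of these fits the share within 50 rows was above that of all genes. The latter was 1.18% to 1.59% without a mutant library and 1.5% to 2.9% without a control library. At a threshold of 0.01 none of the nearest 100 rows was called, against 1.75% of the members and 0.525% of all genes. At shares so low, none in 100 rows says little. Across the 400 members, the size of the log2 fold change was weakly related to row distance (Spearman's rho -0.07 across genes, which are not independent replicates), with -0.06 above and -0.09 below *vegfc*. The median size of the log2 fold change was 0.42 in the nearest 100 rows and 0.33 in the outermost 100.

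Each side was then taken alone. Over all genes, 3.34% were called, 2.13% higher and 1.21% lower in mutants. Above *vegfc*, 18 of 200 rows (9.0%) were called, 8 higher and 10 lower in mutants. The nearest 50 rows held 7 of them (14.0%), of which 6 were lower. Below *vegfc*, 14 of 200 rows (7.0%) were called, 10 higher and 4 lower. Here the block from 51 to 100 rows held 6 (12.0%), of which 5 were higher. Without genes whose mean in 1 genotype was under 10 counts, this block held 3 of 46 rows (6.52%). The nearest 50 rows above then held 4 of 44 (9.09%), against 2.92% of all genes. No gene was called in the 58 rows beyond *aimp1*, which lay 142 rows below. Of the outermost 50 rows, 6 (12.0%) had an unadjusted p-value under 0.05 in the edgeR test, against 20.9% of all genes. The genotypes overlapped in all of these 50 rows, while 10.5% of all genes had no overlap. The differences did not end there, however. Just outside the members on the lower side, 4 of 50 rows (8.0%) were called, as were 4 of the 50 rows after those (8.0%). On the upper side the farthest called member was *fam114a1*, 194 rows away, and the 50 rows just outside the members held a further 7. Called rows at most 10 rows from the next were joined into groups, with uncalled stretches between them. By this rule 2 groups of 6 called rows each stood from 194 to 163 rows above and from 54 to 72 rows below *vegfc*. Both groups include genes whose mean in 1 genotype was under 10 counts, which passed the authors' filter through the other genotype. Rows called at random would also form groups by this rule, and whether the calls cluster was not tested. Counts in single blocks of 50 rows are small, and no test was made between blocks.

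**Figure D2:**
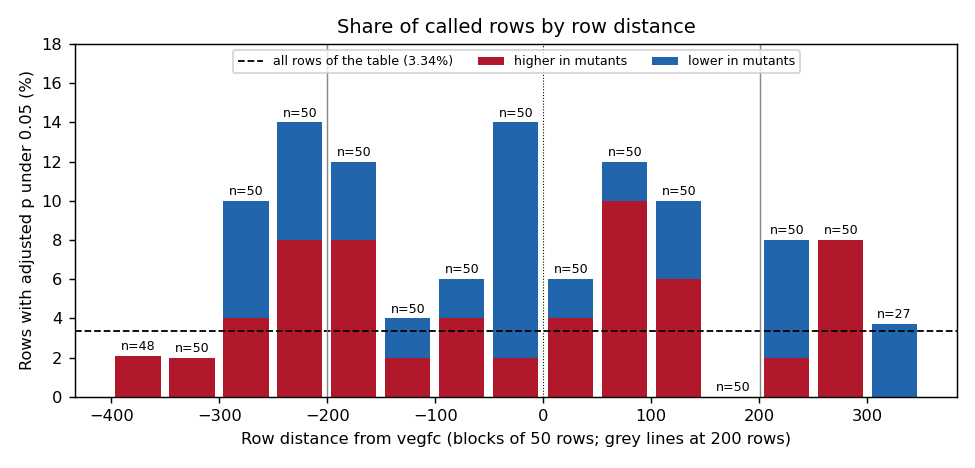
Bars give the percentage of rows called in blocks of 50 rows along chromosome 1 by row distance from *vegfc* (negative above it), split into genes higher and lower in mutants, with the number of rows over each bar and the 3.34% of all rows as a dashed line. The share is 14.0% in the block just above *vegfc* and again in the first block outside the members on that side, and no row is called in the outermost member block below. The first block outside the members on the lower side stands at 8.0%.

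**Figure D3:**
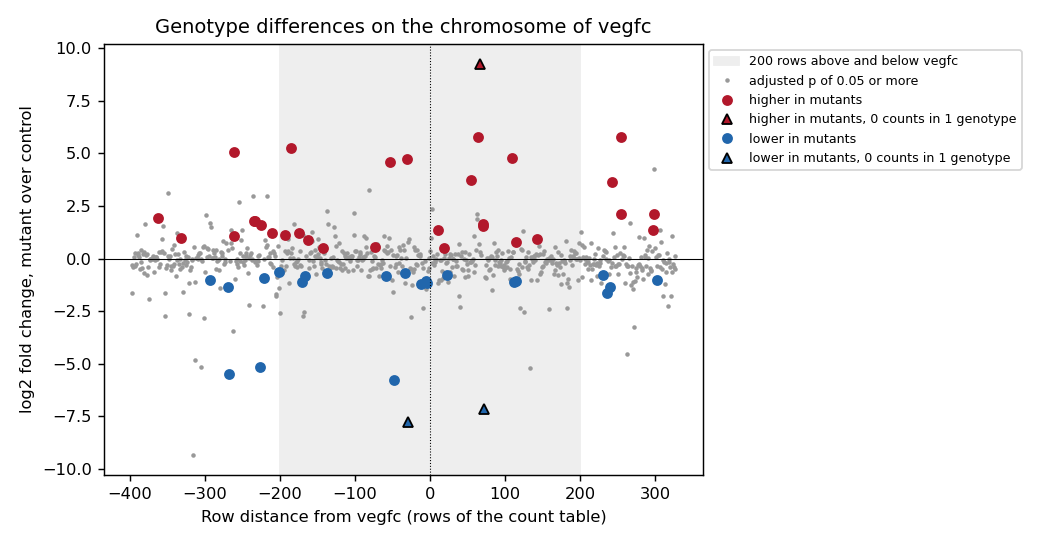
Each point is 1 row of chromosome 1, with row distance from *vegfc* on the horizontal axis and the log2 fold change of mutant over control on the vertical axis. Red and blue mark called genes, triangles mark those without counts in 1 genotype (their fitted values are no bounds), and most grey points between the called ones lie near 0.

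*vegfc* itself did not differ beyond the spread between libraries. It held 59, 84, 119 and 195 counts in mutants, against 122, 121, 86, 35 and 72 counts in controls (log2 fold change 0.35 ± 0.46 SE, adjusted p-value 0.719 in edgeR). The groups overlapped over most of their range. *vegfd*, on another chromosome, checks the labels: it held 4 to 18 counts in mutants and 34 to 154 counts in controls (log2 fold change -2.82, adjusted p-value 0.0195 in edgeR). That adjusted p-value was 0.0562 without mutant replicate 6 and 0.0611 without mutant replicate 7.

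None of the 3 nearest rows on either side passed the test. *spcs3*, which encodes a subunit of the signal peptidase, was 1 row above, at 22.2 to 25.1 CPM in mutants and 21.8 to 24.5 CPM in controls (log2 fold change 0.03). *asb5b* and *wdr17* followed, with log2 fold changes of -0.46 and -0.58. On the lower side, the interferon regulatory factor gene *irf2a*, 3 rows away, had a log2 fold change of -0.20. *tenm3*, which encodes a teneurin, a cell-surface protein of neuronal wiring, was 1 row below and had 25.2, 22.1, 17.6 and 18.7 CPM in mutants, against 13.6, 8.05, 7.02, 18.6 and 6.22 CPM in controls. Only control replicate 4 reached into the mutant range (log2 fold change 0.97 ± 0.31 SE, adjusted p-value 0.118 in edgeR, and 0.0427 without control replicate 4). With any other library left out, the edgeR adjusted p-value of *tenm3* was between 0.118 and 0.243. The deoxycytidylate deaminase gene *dctd*, 2 rows below, held 35 to 67 counts in mutants and 0 to 22 in controls (log2 fold change 2.34 ± 0.73 SE, adjusted p-value 0.106 in edgeR). The adjusted p-values of these genes were under 0.05 by the likelihood ratio test of edgeR (0.0484 for *tenm3* and 0.0109 for *dctd*) and by DESeq2 (0.0392 and 0.0117).

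*hand2*, a transcription factor gene that is needed for heart formation, stood 8 rows above *vegfc*. Its expression was 64.0, 40.6, 67.8 and 41.8 CPM in mutants, against 96.8, 91.6, 70.2, 117 and 175 CPM in controls. The genotypes did not overlap, though mutant replicate 8 and control replicate 3 were close. It missed the threshold in the quasi-likelihood test (log2 fold change -1.04 ± 0.27 SE, adjusted p-value 0.0686 in edgeR) and was under it by the likelihood ratio test (0.0122) and DESeq2 (0.00501). With a library left out, its adjusted p-value was between 0.0600 and 0.161.

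The widest differences among the neighbours were close to presence against absence. For 3 called members no count was found in any library of 1 genotype. These 3 passed the authors' filter through the counts of the other genotype alone. *stx3* (ENSDARG00000051981), which encodes a syntaxin of vesicle fusion and lies 67 rows below *vegfc*, held 113, 60, 83 and 37 counts in mutants and 0 in all 5 controls. Against a floor of 3 counts per library this was at least 25.1-fold higher in mutants (edgeR adjusted p-value 0.00549). The reverse was seen for ENSDARG00000105033, which has no symbol and lies 29 rows above, with 0 counts in all 4 mutants and 27, 6, 68, 22 and 24 in controls. It was at least 8.81-fold lower in mutants (edgeR adjusted p-value 0.0195). si:dkey-9i23.14, 72 rows below, likewise held 0 counts in mutants and 11 to 28 in controls and was at least 5.79-fold lower (edgeR adjusted p-value 0.0139). The table has a second identifier under the name *stx3*, and the division of reads between the copies is uncertain.

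Counts of 5 or fewer over a whole genotype were found for a pair of further members, both between *vegfc* and the rows 50 above it. This pair passed the authors' filter almost wholly through the counts of the other genotype. *gyg2*, for glycogenin, the primer of glycogen synthesis, held 1 count in all mutants together and 96 in controls (6, 34, 14, 26 and 16). The ratio of control to mutant was 74.0, with a 95% interval from 13.0 to 2950 (exact binomial, counting error only), and the edgeR adjusted p-value was 0.0225. si:dkey-151m22.9, 31 rows above, held 25, 13, 28 and 43 counts in mutants and 5 in all controls together, a ratio of mutant to control of 28.3 (95% interval 11.8 to 88.8, edgeR adjusted p-value 0.0208). The call of *gyg2* was lost without any of the mutant libraries (adjusted p-value at most 0.0675) and under limma-voom (0.0832). That of si:dkey-151m22.9 was lost without mutant replicate 8 (0.0525) or 9 (0.0562).

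The other called members with a fitted change of 8-fold or more were higher in mutants. *sts*, for steroid sulfatase, which removes sulfate groups from steroids, lies 54 rows above *vegfc* and had 9.63, 8.51, 9.55 and 4.55 CPM in mutants, against 0.185, 0.960, 0.311, 0.0629 and 0.237 CPM in controls (log2 fold change 4.58 ± 0.58 SE, adjusted p-value 0.00418 in edgeR). The lowest mutant thus stood above the highest control by several-fold. *ptprdb*, for a receptor-type tyrosine phosphatase of neuronal adhesion, lies 185 rows above and held 163, 176, 103 and 137 counts in mutants and 0, 0, 5, 5 and 10 in controls (log2 fold change 5.23 ± 0.68 SE, adjusted p-value 0.00455 in edgeR). si:dkey-22n8.3, 109 rows below, held 209, 325, 370 and 195 counts in mutants and 24, 0, 8, 17 and 5 in controls (log2 fold change 4.76 ± 0.63 SE, adjusted p-value 0.00508 in edgeR). For these 3 the call held in each fit that left out a library. The means of *sts* and *ptprdb* in controls were under 10 counts, so both passed the authors' filter only through the mutants.

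*rtn4rl2a*, a gene of the Nogo receptor family, lies 54 rows below and was the least even of the wide differences. It had 81.3, 12.9, 14.3 and 21.6 CPM in mutants, against 6.89, 0.777, 0.764, 3.43 and 0.326 CPM in controls. Mutant replicate 6 stood far above the other mutants, and controls 1 and 4 above the other controls. The log2 fold change was 3.73 ± 0.89 SE (adjusted p-value 0.0494 in edgeR). It was 2.73 without mutant replicate 6 (0.133), and the call was lost in every fit that left out a library except that without control replicate 1, as well as in the robust fit (0.0697) and under scaling by relative log expression (0.0502).

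**Figure D4:**
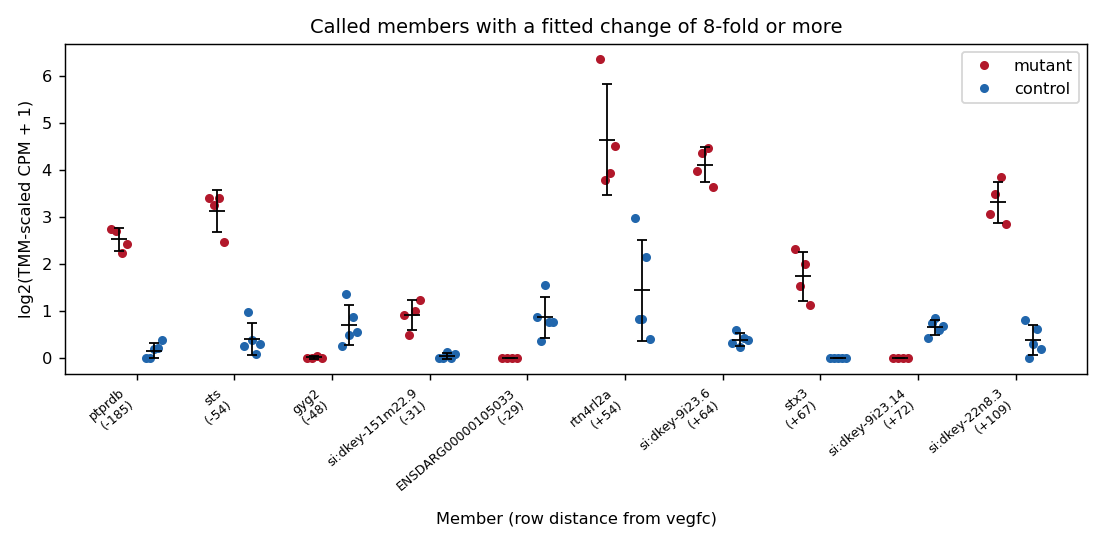
Points give the level of each library, as log2 of TMM-scaled CPM plus 1, for the 10 called members with a fitted change of 8-fold or more, mutants in red and controls in blue, with the mean and SD (n = 4 and 5). The genotypes do not overlap for any of them, and 3 have 1 genotype at 0 in all libraries.

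The 9 rows from 64 to 72 below *vegfc* held 5 of the called genes. si:dkey-9i23.6 (ENSDARG00000094678) had the smallest p-value of all neighbours, with 422, 620, 582 and 362 counts in mutants and 8, 11, 6, 11 and 10 in controls. Its log2 fold change was 5.76 ± 0.31 SE (adjusted p-value 1.96e-05 in edgeR), and both groups were narrow. Its mean in controls was under 10 counts, so it passed the authors' filter only through the mutants. *stx3* followed 3 rows further on. wu:fc21g02, 70 rows below, had 24.1, 26.7, 17.9 and 22.5 CPM in mutants, against 8.28, 6.04, 6.45, 9.47 and 6.16 CPM in controls (log2 fold change 1.65, adjusted p-value 0.00183 in edgeR). The 2 rows after it moved in opposite directions. si:dkey-9i23.15 was at 6.71 ± 1.56 CPM in mutants (SD, n = 4) and 2.31 ± 0.170 CPM in controls (SD, n = 5), a log2 fold change of 1.54 (adjusted p-value 0.00428 in edgeR), while si:dkey-9i23.14 had no count in mutants. All 5 genes kept their call with any library left out. Most are known only by clone names, and no role is given for them.

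Another adjacent pair in opposite directions was found among the genes of MHC class I, which present peptides or other ligands to immune cells and often differ between fish lines in sequence and gene content. *mhc1zda* (114 rows below *vegfc*) and *mhc1zca* (115 rows below) belong to the Z lineage of zebrafish. They lie between *mhc1zea* (113 rows below, log2 fold change 0.85) and *mhc1zba* (116 rows below, -0.52). Those flanking genes were not called, and the share and sum below leave them out. *mhc1zda* had 20.3, 22.7, 18.6 and 17.7 CPM in mutants, against 11.9, 8.37, 13.4, 12.3 and 11.6 CPM in controls (log2 fold change 0.78, adjusted p-value 0.0289 in edgeR). *mhc1zca* had 15.4, 12.6, 10.8 and 17.5 CPM in mutants, against 28.7, 35.1, 31.8, 26.7 and 27.0 CPM in controls (log2 fold change -1.08, adjusted p-value 0.0102 in edgeR). In these libraries *mhc1zda* made up 50.2% to 64.3% of the summed CPM of the pair in mutants and 19.3% to 31.6% in controls. The sum itself was 33.9 ± 3.01 CPM in mutants (SD, n = 4) and 41.4 ± 2.90 CPM in controls (SD, n = 5). The share could not overlap between the genotypes, since both genes were called without overlap and in opposite directions. The sum did not overlap either. Reads from related copies can be exchanged or lost in alignment, and the division between these genes is uncertain. The call of *mhc1zda* was lost without any of the mutant libraries and without control replicates 4 and 5, with adjusted p-values from 0.0501 to 0.0817.

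Besides *sts* and *gyg2*, the called members with roles in metabolism were *lias*, *pcca* and *txn*. They were higher in mutants by less than 2-fold. *lias*, for the lipoic acid synthase of mitochondria, was at 41.1 ± 1.88 CPM in mutants (SD, n = 4) and 29.1 ± 3.32 CPM in controls (SD, n = 5), a log2 fold change of 0.50 (adjusted p-value 0.0488 in edgeR). *pcca*, for a subunit of the propionyl-CoA carboxylase, was at 226 ± 34.6 CPM in mutants (SD, n = 4) and 156 ± 6.15 CPM in controls (SD, n = 5), a log2 fold change of 0.53 (adjusted p-value 0.0442 in edgeR). Thioredoxin, *txn*, was at 135 ± 11.5 CPM in mutants (SD, n = 4) and 94.5 ± 7.57 CPM in controls (SD, n = 5), a log2 fold change of 0.52 (adjusted p-value 0.0365 in edgeR). Each of these calls stood near the threshold and was lost in 8 of the 9 fits that left out a library. The fit that kept it was that without control replicate 2 for *lias*, mutant replicate 6 for *pcca* and control replicate 1 for *txn*. The largest adjusted p-values were 0.111, 0.111 and 0.0922 in that order of genes.

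Further called members are described by their known roles, without a list fixed for these roles. *gtf2f2*, for a subunit of the general transcription factor TFIIF, was at 16.2 ± 1.21 CPM in mutants (SD, n = 4) and 26.5 ± 2.87 CPM in controls (SD, n = 5), a log2 fold change of -0.71 (adjusted p-value 0.0188 in edgeR). *naa15*, for the auxiliary subunit of the NatA acetyltransferase, had a log2 fold change of -0.79 (0.0328), and *poll*, for the repair polymerase lambda, one of -0.81 (0.0238). *mettl14*, for a subunit of the m6A methyltransferase of mRNA, was lower by a log2 fold change of -1.12 (0.0484), *setd4*, for a SET-domain methyltransferase, by -1.13 (0.0311), and *n4bp2* by -0.68 (0.0356). Higher in mutants was *aimp1*, a scaffold of the aminoacyl-tRNA synthetase complex, with 84.2, 92.4, 125 and 88.2 CPM in mutants, against 57.5, 55.0, 50.4, 47.7 and 43.9 CPM in controls (log2 fold change 0.94, adjusted p-value 0.0105 in edgeR). Its mutant libraries all stood above its controls, and its call held with any library left out.

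Several of these calls were lost in fits that left out a library, and the cause of these losses was not tested. Without 1 library, *gtf2f2* lost its call for mutant replicates 6, 7 and 9 (at most 0.0562), *poll* for every mutant library and control replicates 3 and 4 (at most 0.0566), and *naa15* for every mutant library and control replicates 3 and 5 (at most 0.0904). *setd4* lost it for mutant replicates 6, 7 and 8 and control replicates 3, 4 and 5 (at most 0.0854), and *n4bp2* for every mutant library and control replicates 2, 3 and 4 (at most 0.0940). *mettl14* kept it only without control replicate 1 (at most 0.122), and with all libraries lost it under limma-voom (0.0549), in the robust fit (0.0503) and under scaling by library size alone (0.0507).

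*spock3*, for the matrix proteoglycan testican-3, was at 746, 763, 786 and 690 CPM in mutants, against 1428, 1441, 1171, 1617 and 1014 CPM in controls, a log2 fold change of -0.84 ± 0.14 SE (adjusted p-value 0.0177 in edgeR). The mutant libraries were close to each other and all below the controls. *dclk2a*, for a doublecortin-like kinase of microtubules, lies 12 rows above *vegfc* and had 18.3, 30.6, 22.5 and 21.6 CPM in mutants, against 48.7, 74.9, 49.3, 49.1 and 49.3 CPM in controls, a log2 fold change of -1.22 ± 0.19 SE (adjusted p-value 0.0114 in edgeR). This was the called gene nearest to *vegfc* whose call held with any library left out. Nearer still were *cep44*, for a centrosomal protein, 6 rows above, with a log2 fold change of -1.07 (0.0388), and the membrane glycoprotein gene *gpm6a*, 4 rows above, with -1.18 (0.0461). On the lower side the nearest was the coiled-coil gene *ccdc149*, 10 rows away, with a log2 fold change of 1.35 (0.0380).

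Far above *vegfc*, *fam114a1* was higher in mutants by a log2 fold change of 1.11 (0.0194), *fnip2*, for a partner of folliculin, by 1.19 (0.0377), and *klhl2*, for an adaptor of a ubiquitin ligase, by 0.90 (0.0195), all as edgeR adjusted p-values. Among the genes from *spock3* onwards, *cep44* and *fnip2* lost their call in all 9 fits that left out a library (at most 0.0908 and 0.0986, and 0.0503 for *fnip2* under limma-voom), *gpm6a* without mutant replicates 6, 7 and 9 and control replicates 1, 3, 4 and 5 (at most 0.119), and *ccdc149* without any mutant library and control replicates 3, 4 and 5 (at most 0.111). *klhl2* lost it without mutant replicates 7, 8 and 9 and control replicate 3 (at most 0.0556), *spock3* without mutant replicates 7 (0.0502) and 9 (0.0525), and *fam114a1* without mutant replicates 7 (0.0591) and 9 (0.0515). *gpm6a*, *ccdc149*, *naa15* and *aimp1* also have a second identifier of the same name, so that the division of their reads is uncertain, and this holds for *tenm3* too.

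Each library was then placed on a scale with 0 at the control mean and 1 at the mutant mean of log2 of CPM plus 1 at the 32 called members. No mutant library lay nearer to the control mean at any of them. Of 160 values in controls, 3 lay nearer to the mutant mean, namely *mettl14* and *gyg2* in control replicate 1 and ENSDARG00000105033 in control replicate 2. These 3 members lie 171, 48 and 29 rows above *vegfc*, and at every other called member the same libraries lay nearer to the control mean. These members were called on the same values and do not overlap between genotypes, which largely fixes this pattern, and uncalled rows were not placed.

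**Figure D5:**
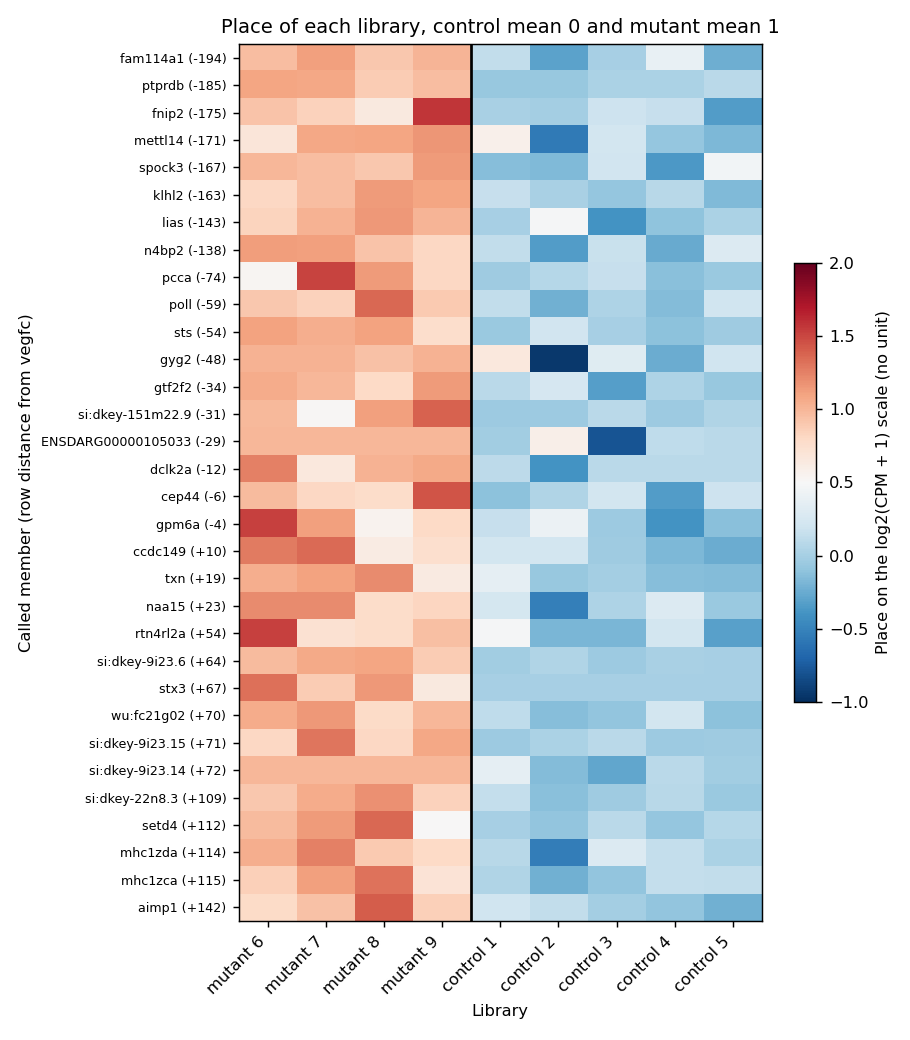
Rows are the 32 called members in chromosome order and columns the 9 libraries, mutants to the left of the line. Colour gives the place of a library on the log2(CPM + 1) scale, where 0 is the mean of controls and 1 the mean of mutants, and all but 3 control values lie on the side of their own genotype.

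Of 13 genes measured from a list of the Vegfc pathway and lymphatic markers, 2 were called, both lower in mutants, against 1.21% of all genes called lower. They were *vegfd*, which is itself mutated in these fish, and *flt4*, the receptor. *flt4* was at 0.360 ± 0.279 CPM in mutants (SD, n = 4) and 2.84 ± 0.934 CPM in controls (SD, n = 5), a log2 fold change of -2.98 (adjusted p-value 0.0181 in edgeR). The other 11 had log2 fold changes between -2.27, for the lymphatic marker *lyve1b*, and 0.35, for *vegfc*, and did not pass the test. *lyve1b* was at 0.130 ± 0.134 CPM in mutants (SD, n = 4) and 0.647 ± 0.489 CPM in controls (SD, n = 5, adjusted p-value 0.176 in edgeR), and *ccbe1*, the cofactor of Vegfc processing, had a log2 fold change of -1.19 (0.309). None of these genes except *vegfc* lies within the 401 rows.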

How the data were processed

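RNA-seq libraries from ventricles of 4 mutant and 5 control samples were used. The authors trimmed reads with Skewer, aligned them to GRCz11 (Ensembl 95) with STAR 2.5.2a and counted them with featureCounts 1.5.0 on the annotated strand at a mapping quality of at least 20. The deposited values are raw counts per gene, one column per library, kept where the mean over libraries reached 10. Alleles that differ from the assembly can lose aligned reads in 1 line, which would change counts there.

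Counts of all 16575 genes were fitted in edgeR 4.0.16 (R 4.3.3) with TMM scaling and the quasi-likelihood F test (legacy=TRUE), without covariates. P-values were adjusted over all genes by Benjamini-Hochberg at a threshold of 0.05. Standard errors are the log2 fold change over the square root of F. The procedure was tested on simulated data. Symbols were found for 15812 identifiers, and for 393 of the 400 members, of which 52 share theirs with another identifier. Members and lists were chosen with earlier results of these data known. Named genes are *vegfc*, *vegfd*, the 3 nearest rows on each side, *hand2*, *acta1*, *mpc2*, *sts* and *wfs1* where members (*hand2* and *sts* were), the 10 called members of smallest p-value in each direction, the farthest called on each side, and those with at most 3 counts in every library of 1 genotype. A further 11 called members are named after their values were seen. The results were recomputed with DESeq2 1.42.0, with limma-voom (limma 3.58.1, quality weights), with the likelihood ratio test and a robust fit of edgeR, 2 other scalings, a filter at a mean of 50 counts, a threshold of 0.01, other widths of the neighbourhood and each library left out. The filter at a mean of 10 counts in each genotype was added after seeing the data. No sequence is printed, since no sequence of the members was used here.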

Additional observations from a re-analysis of the deposited data

Results flagged for a closer look

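In each genotype the highest and lowest library of every gene named was set against the rest (79 sets of values). A library stood apart in 8 of them, and about 3.95, or 1 in 20, would by chance. Among mutants, *rtn4rl2a* was at 81.2 CPM in replicate 6 against 12.8 to 21.6 in the others, *mettl14* at 3.01 CPM in replicate 6 against 2.03 to 2.17, *poll* at 4.65 CPM in replicate 8 against 6.13 to 6.31, and *dctd* at 2.10 CPM in replicate 7 against 1.26 to 1.33. *gyg2* was at 0.036 CPM in mutant replicate 8, which is 1 count where the other mutants had 0. Among controls, replicate 2 was the highest for *sts*, at 0.960 CPM against 0.0629 to 0.311, and for *dclk2a*, at 74.9 CPM against 48.7 to 49.3, and replicate 1 was the highest for *txn*, at 108 CPM against 89.4 to 93.8. Each of these genes except *dctd* is among the called members. No called member overlapped between genotypes, so their flagged libraries could not reach the other genotype. For *dctd* the flagged library did not reach it either.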

How the results depend on the processing

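The share of called members was above the share of all genes in each fit. By the likelihood ratio test 27 members were higher and 31 lower. These were 14.5% of members and 18% within 50 rows, against 8.19% of all genes (1357). By DESeq2 28 were higher and 40 lower. This was 17.0% of members and 21.0% within 50 rows, against 10.1% of all genes (1666). Both tests included all 32. At a threshold of 0.01, by its own construction, 7 were higher and 0 lower. The shares were 1.75% of members and 0.0% within 50 rows, against 0.525% of all genes (87). With 100 rows on each side 10 were higher and 9 lower (9.5%), and with 300 rows 29 and 23 (8.67%), as fewer or more rows entered. Both stand against 3.34% of all genes. Leaving out each library in turn gave 8 to 17 higher and 5 to 13 lower members. That made 3.5% to 7.25% of members and 3.0% to 9.0% within 50 rows, against 1.18% to 2.9% of all genes (196 to 481). Fewer libraries entered these fits, and the cause of their range was not tested. limma-voom, the robust fit, both scalings and the filters stayed within 1.5 times of each count.

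Of the 32 called members, 12 kept the call in all 9 fits with a library left out, and 20 lost it in 120 of 288 such values. Apart from the threshold of 0.01, 7 values under other settings lost it. None reversed. *spcs3*, at a log2 fold change of 0.03, ran between -0.0039 (without mutant replicate 7) and 0.05 with a library left out. *vegfc* stayed short of the threshold throughout, between 0.01 and 0.69. No paired analysis was possible because the genotypes share no replicate number. At this depth, members with under 50 mean counts (82 of 400) carry the widest counting error.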
